A study of Mus musculus with 3 samples.

Results

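The cells described here are the MyoFB-IMR, MyoFB-Int and MyoFB-Ter cells of 1 library of sorted mouse lung mesenchyme, taken by the cell types in the authors' deposited cell table: 1032, 1324 and 303 cells. Together they make up 2659 of the 3347 cells of that library (79.4%) and of the 6142 cells of the whole series. The series profiled single cells from lungs of postnatal day 7 pups, sorted on 2 fluorescent reporters into 3 gates, with 1 library per gate. All pups carried Fgf18CreERT2/+, ROSATDTomato/+ and PdgfrαEGFP/+ and had received tamoxifen from day P2 to P5, so every cell, whatever its gate, comes from animals with 1 knock-in allele at Fgf18 and 1 at Pdgfra. The library used here is the GFP-high tdT-negative gate: cells bright for the Pdgfra reporter and sorted as negative for tdTomato. The tdTomato label is driven by Cre from the Fgf18 locus. The GFP-high tdT-high gate, which holds 467, 801 and 190 cells of the same 3 types, is set beside it as a second library. The GFP-low tdT-negative gate holds 21, 22 and 23 and was not used. The labels and protocols used here do not say how many pups lie behind a library. IMR, Int and Ter are the authors' labels, and the deposited text does not spell them out.

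Alveolar myofibroblasts are mesenchymal cells of the growing septa of the neonatal lung. They answer to platelet-derived growth factor through Pdgfra, carry a contractile apparatus of smooth muscle proteins, and secrete elastin and the proteins that bundle and cross-link it while the alveoli form. Fgf18 is a secreted fibroblast growth factor made in the lung mesenchyme during this period, and Wnt, TGF-beta and hedgehog signals also act on these cells.

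The types held 20382777, 26955486 and 5309577 unique molecular identifiers (UMIs, the counted mRNA molecules), with a median per cell of 19461, 19460 and 16669 in the order MyoFB-IMR, MyoFB-Int and MyoFB-Ter, an order kept throughout. Median detected genes were 5290.5, 5207.5 and 4818, and the median mitochondrial share was 2.80%, 2.70% and 2.88%. Ribosomal protein genes took 10.1%, 9.05% and 8.14% of all UMIs. Levels are UMIs of a gene summed over a type, scaled by the total of that type (CPM, counts per 1000000), and 3 UMIs correspond to 0.147, 0.111 and 0.565 CPM. Intervals at 95% are exact (Poisson for a level, conditional binomial for a ratio) and cover counting error only. There is 1 library, the cells are not replicates, and the authors named the types from the expression of these same cells, so no test was made and all differences between types are descriptions. Barcodes shared between libraries numbered 4.

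The cells carried the markers of contractile myofibroblasts, and defining genes of epithelial, immune and mesothelial cells were at or near 0, while markers shared with other fibroblasts and pericytes were not. With every cell thinned to 5000 UMIs (no cell held fewer), Acta2, smooth muscle actin, was found in 81.5%, 87.9% and 86.5% of cells (91.4%, 95.6% and 94.7% without thinning), against 12.2% of the adventitial fibroblasts (AdvFB) of the same library. Tagln, an actin-binding smooth muscle protein, was found in 87.1%, 96.3% and 95.7% (94.96%, 98.8% and 98.7% without thinning), against 7.62% there. Summed levels over 12 epithelial markers lay between 13.1 and 18.3 CPM with Nkx2-1 at 0, and C1qa of the immune list and Msln, Wt1 and Bnc1 of the mesothelial list were also at 0. Endothelial markers summed to 131, 59.6 and 46.0 CPM and immune markers to 45.4, 24.8 and 15.8 CPM, so both lists were highest in MyoFB-IMR. Most of the endothelial sum came from Ramp2 (93.1, 39.2 and 27.7 CPM) and Pecam1 (30.1, 13.9 and 12.1 CPM), and most of the immune sum from Csf1r (21.6, 8.83 and 6.404 CPM) and Lyz2 (16.6, 9.79 and 2.64 CPM), while Cdh5 and Ptprc were at 0 in MyoFB-Ter and under 1 CPM elsewhere. S100b of the neural and glial list stood at 216, 127 and 91.2 CPM. The part of these lists in the results was not tested. 

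The 12 adventitial markers summed to 506, 349 and 375 CPM, with 2 of the 4 tested members rising steadily and 1 falling. Dpt (dermatopontin) went from 11.4 through 26.9 to 76.1 CPM and Col14a1 from 15.7 through 37.2 to 129 CPM, whereas Cd34 fell from 363 through 219 to 94.0 CPM. Dcn stood at 7.85, 8.09 and 13.6 CPM, against 6117 CPM in AdvFB, and Lum at 3.09, 1.93 and 0.565 CPM. The 10 alveolar fibroblast markers summed to 108, 215 and 386 CPM, mostly Mfap4 (58.1, 162 and 318 CPM), with 2 of 3 tested members rising. The 10 pericyte markers summed to 352, 294 and 387 CPM, with 2 of 5 tested members rising and 2 falling. The adventitial list was thus lowest in MyoFB-Int and the alveolar list highest in MyoFB-Ter, and the part of such cells or their RNA in the results was not tested beyond leaving out cells with a UMI of Dcn, Lum, Serpinf1 or Clec3b, which left 205 of the 230 rising and 217 of the 236 falling genes called.

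A gene was called rising or falling steadily when both steps, MyoFB-IMR to MyoFB-Int and MyoFB-Int to MyoFB-Ter, lay beyond the counting interval in the same direction and the ends differed at least 2-fold on the log2(CPM + 1) scale. Genes entered with at least 20 CPM in their highest type and a UMI in at least 10% of its cells. Of 7447 such genes, 230 rose steadily (3.09%) and 236 fell steadily (3.17%), and the shares given for gene lists further on are to be read against these values. The ends differed by at least 4-fold in 83 rising and 53 falling genes, and by at least 8-fold in 29 and 7. The median log2 ratio of MyoFB-Ter over MyoFB-IMR over all 7447 genes was -0.01. Without the 2-fold limit, 682 genes stepped up at both steps beyond the counting interval and 831 stepped down at both. Genes that turned round at MyoFB-Int were also present, counted in the same way without a fold limit: 290 stepped up and then down, and 146 down and then up. Just inside the 2-fold limit lay Lsp1 (122, 222 and 246 CPM) and Gpsm2 (12.2, 17.9 and 25.4 CPM), rising, and Zfhx3 (138, 99.8 and 68.6 CPM) and Fancc (207, 120.2 and 103 CPM), falling. Just outside it lay Slc25a27 (52.2, 73.5 and 105 CPM), Galnt2 (37.2, 55.8 and 75.3 CPM), Ptprk (1103, 749.6 and 551 CPM) and Tspan5 (185, 134 and 92.7 CPM).

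**Figure D1:**
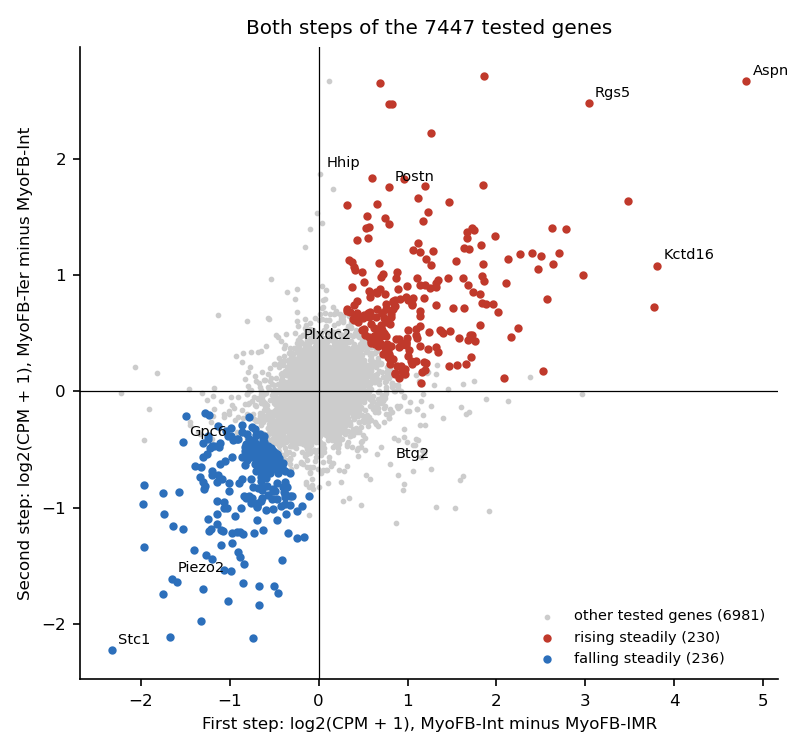
Each point is a tested gene of the GFP-high tdT-negative library. The horizontal axis gives its first step (MyoFB-Int minus MyoFB-IMR) and the vertical axis its second step (MyoFB-Ter minus MyoFB-Int), both on the log2(CPM + 1) scale. Colour marks the genes that pass both steps and the 2-fold limit between the ends, 230 rising (red) and 236 falling (blue). Aspn is furthest out among the rising genes, Stc1 among the falling, and Hhip lies near 0 on the first step.

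The gene that climbed most steeply was Aspn (ENSMUSG00000021388.14, chr13:49544443-49567565, plus strand), which encodes asporin, a small leucine-rich matrix protein that binds collagen and TGF-beta. Its level went from 8.59 through 268 to 1708 CPM, a rise of 199-fold (95% interval 171 to 232). In thinned cells it was found in 2.81%, 26.0% and 67.3% (9.50%, 38.4% and 77.6% without thinning). Level and share thus differed between all 3 types beyond counting error. Its neighbour Ogn (ENSMUSG00000021390.6, chr13:49608046-49624501, plus strand), encoding the related proteoglycan osteoglycin, went from 4.32 through 58.4 to 184 CPM, and Ecm2, a further leucine-rich matrix gene of the same stretch, from 12.5 through 23.6 to 41.4 CPM. Cenpp, a centromere protein gene whose annotated span on the opposite strand covers Aspn, Ogn and Ecm2, was also called rising (20.4, 69.9 and 127 CPM). The sources used here do not say whether counting used strand, so the reads of Cenpp and of the 3 genes inside it cannot be told apart. AdvFB cells carry Aspn and Ogn too, in 85.1% and 82.0% of thinned cells. Cells of the library whose type names begin with MatFB carry them in 64.7% and 95.3%. Of the adventitial markers, Dpt and Col14a1 rose as well while Dcn and Lum stood at the levels given above.

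The promoter windows of both genes, taken from RefSeq (build GRCm38.p6, 250 bases before to 50 after the start), are shown because the genes sit side by side and rose together. Capitals mark strings with the letters of a TATA box (TATAAA on either strand). They lie 207 and 178 bases before the start of Aspn and overlap each other from 229 bases before that of Ogn. Whether any of them acts as a TATA box was not tested. The windows are Aspn at chr13:49544193-49544492, plus strand, and Ogn at chr13:49607765-49608064, plus strand.
Aspn: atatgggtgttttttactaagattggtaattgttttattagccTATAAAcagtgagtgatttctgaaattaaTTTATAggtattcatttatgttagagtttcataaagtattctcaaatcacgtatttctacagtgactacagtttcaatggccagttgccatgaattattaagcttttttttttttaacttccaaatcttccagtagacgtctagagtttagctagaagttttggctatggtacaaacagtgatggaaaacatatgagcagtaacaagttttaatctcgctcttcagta
Ogn: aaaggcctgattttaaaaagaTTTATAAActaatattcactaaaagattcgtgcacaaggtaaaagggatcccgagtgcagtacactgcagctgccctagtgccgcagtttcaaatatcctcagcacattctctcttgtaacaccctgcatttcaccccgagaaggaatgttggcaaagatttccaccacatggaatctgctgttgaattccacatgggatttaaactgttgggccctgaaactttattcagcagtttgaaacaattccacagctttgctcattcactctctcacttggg

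The other steep climbers came from several families. Rgs5, a brake on G protein signalling known from pericytes, went from 1.13 through 16.5 to 96.4 CPM. Kctd16, an auxiliary subunit of GABA-B receptors, went from 22.1 through 322 to 683 CPM (31.0-fold), and was found in 5.72%, 33.5% and 57.4% of thinned cells (9.69%, 43.6% and 66.0% without thinning). In AdvFB, by contrast, Kctd16 was found in 4.57%. Bdnf, a neurotrophin, stood at 2.06, 40.7 and 68.2 CPM and Pdgfd, a ligand of the PDGF receptor beta, at 2.16, 23.9 and 48.8 CPM. Gja1, the gap junction protein connexin 43, climbed mainly at the second step, from 2.40 through 11.4 to 80.0 CPM. The cadherin family genes Cdh4 (15.2, 110.2 and 292 CPM), Fat3 (4.76, 34.6 and 93.6 CPM) and Pcdh7 (27.4, 99.9 and 241 CPM) rose 19.2-fold, 19.7-fold and 8.81-fold. Also among the 15 steepest were Col12a1, Myof, Fhod3, Adam33, Wnt9a and Thrb, the thyroid hormone receptor beta, highest in MyoFB-Ter (4.86, 9.13 and 55.2 CPM).

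At the falling end stood Stc1 (ENSMUSG00000014813.9, chr14:69029238-69041804, plus strand), which encodes the secreted glycoprotein stanniocalcin 1. It went from 189.9 through 37.1 to 7.16 CPM, 26.5-fold (95% interval 19.3 to 37.6) lower in MyoFB-Ter. Its share of thinned cells went from 41.8% through 12.2% to 2.64% (66.9%, 26.7% and 10.6% without thinning), against 10.4% in AdvFB. Piezo2, a mechanically gated ion channel, fell 9.80-fold (95% interval 8.53 to 11.3), from 377 through 119 to 38.4 CPM. Mgp, matrix Gla protein, an inhibitor of calcification, fell from 5009.9 through 2131 to 927 CPM. These 3 genes lost about equal log2 amounts at each step, with MyoFB-Int at 0.511, 0.507 and 0.507 of the way on a scale where 0 is MyoFB-IMR and 1 is MyoFB-Ter. Rapgef4, an exchange factor for Rap that is switched on by cyclic AMP, went from 59.6 through 18.0 to 3.39 CPM. Lamc3, a laminin chain (50.7, 15.5 and 6.404 CPM), Col24a1, a fibrillar collagen (383, 166 and 60.5 CPM), and Ptges, a prostaglandin E synthase (61.2, 30.4 and 9.79 CPM), fell with them. The remaining names among the 15 steepest fallers were Zmat4, Etv5, Tafa1, Slc9a9, Ccnd1, Prr5l, Adcy10 and Fam162b.

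**Figure D2:**
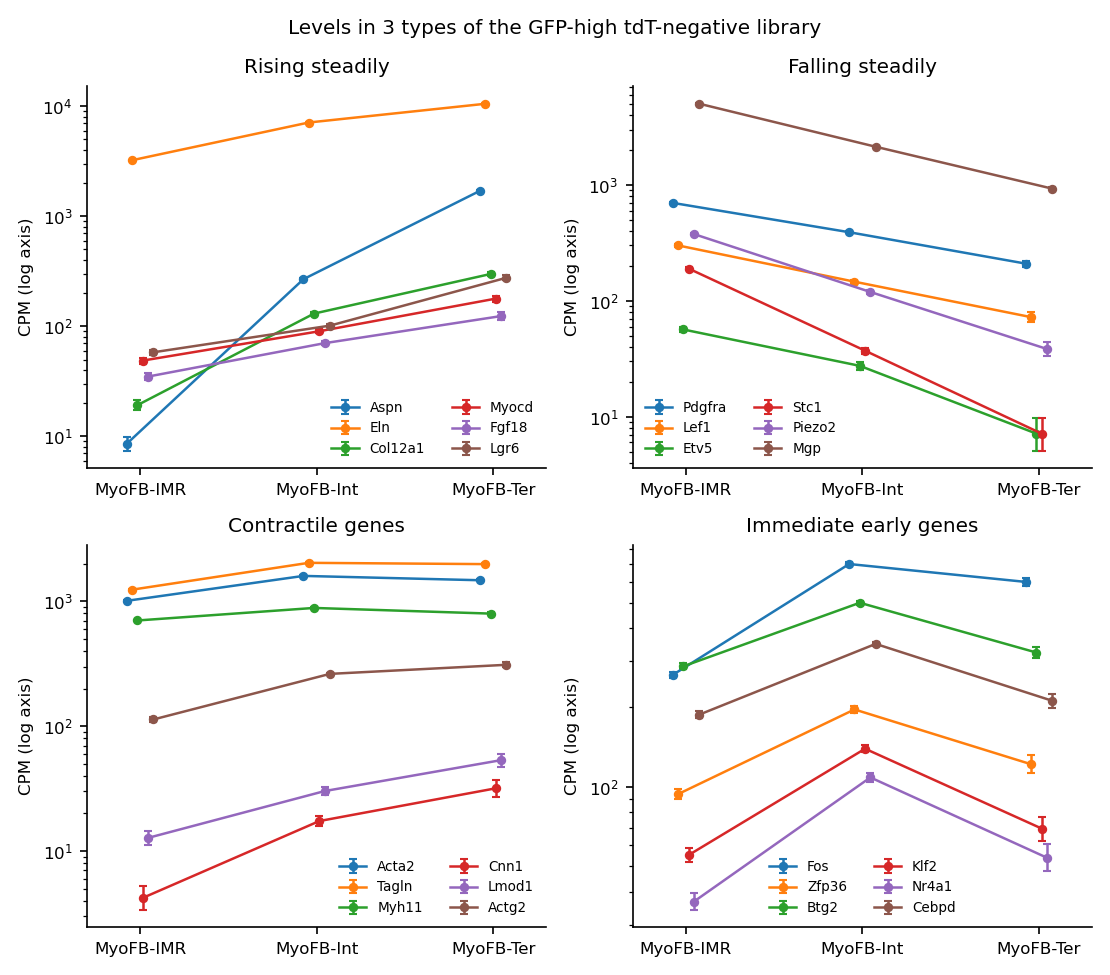
Levels in CPM (log axis) of named genes by type in the tdT-negative library, with exact Poisson 95% intervals. Aspn climbs from 8.59 to 1708 CPM and Stc1 drops from 189.9 to 7.16 CPM, whereas Acta2, Tagln and Myh11 differ by less than 2-fold between the ends and Btg2, Zfp36, Cebpd, Klf2 and Nr4a1 are highest in MyoFB-Int.

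The receptor that marks the lineage fell while the elastic matrix rose. Pdgfra (ENSMUSG00000029231.15, chr5:75152292-75198215, plus strand) went from 699 through 390.4 to 209 CPM, 3.34-fold (95% interval 3.14 to 3.56) lower in MyoFB-Ter, and its reporter transcript H2BGFP from 340.2 through 177 to 83.4 CPM, 4.08-fold (95% interval 3.70 to 4.50) lower. The endogenous gene and the reporter, which the Pdgfra locus drives, were thus ordered alike. All of these cells had passed a gate on GFP, which can limit how low either reads. Pdgfrb, the second PDGF receptor, fell from 134 through 87.3 to 64.2 CPM. Within the PDGF and IGF list, 3 of 15 tested members (20%) rose steadily (Pdgfd, Igf1 and Igfbp5) and 2 (13.3%) fell (Pdgfra and Pdgfrb). Igf1, insulin-like growth factor 1, went from 432 through 770.3 to 937 CPM, and Igfbp5, one of its binding proteins, from 85.7 through 496 to 563 CPM, nearly all of it at the first step. Eng, Vcan, Maml3, Adamts8 and Pde5a, whose values follow, each overlap another called gene, and their reads cannot be told apart from its reads.

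Elastic fibre genes lay mostly on the rising side: 11 of 18 tested members were at least 1.5-fold higher in MyoFB-Ter (8.12% of all tested genes) and 1 was at least 1.5-fold lower (7.94%), and the median log2 ratio was 0.83. Steady risers numbered 8 (44.4%) and steady fallers 0. Eln (ENSMUSG00000029675.12, chr5:134702593-134747323, minus strand), elastin itself, went from 3239 through 7131 to 10556 CPM, 3.26-fold (95% interval 3.22 to 3.30) higher. The lysyl oxidases, which cross-link elastin and collagen, rose in 3 members: Lox from 21.05 through 73.3 to 99.4 CPM, Loxl1 from 84.1 through 219 to 315 CPM and Loxl2 from 166 through 438 to 620.4 CPM. The microfibril proteins Mfap4 (58.1, 162 and 318 CPM) and Mfap5 (3.04, 11.9 and 32.2 CPM), the latent TGF-beta binding protein Ltbp1 (10.3, 35.1 and 67.2 CPM) and the elastin-binding fibulin Fbln5 (7.56, 16.1 and 20.2 CPM) completed the 8. Against the direction of the list, Fbln1 stood at 189.6, 123.4 and 115 CPM and Emilin1 at 68.4, 57.9 and 52.5 CPM.

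Collagens followed with 6 of 17 tested genes rising steadily (35.3%) and 2 falling (11.8%), and a median log2 ratio of 0.87. Col3a1, a major fibrillar collagen, went from 1506 through 2328 to 3394 CPM, and Col1a1 from 550.1 through 865 to 1099.9 CPM, 2.00-fold higher and just short of the limit. Larger ratios belonged to collagens that associate with fibrils or basement membranes: Col12a1 from 19.2 through 131 to 299 CPM (15.6-fold), Col14a1 from 15.7 through 37.2 to 129 CPM (8.24-fold) and Col15a1 from 3.88 through 14.1 to 34.5 CPM (8.89-fold). Col5a2 and Col27a1 were the remaining risers. Col8a1 (20.3, 12.3 and 5.84 CPM) and the transmembrane collagen Col23a1 (39.2, 15.3 and 8.48 CPM) fell. The steep faller Col24a1 (383, 166 and 60.5 CPM) was not in the list and is not in these counts.

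Among matricellular proteins and proteoglycans 8 of 16 tested genes rose (50.0%) and 3 fell (18.8%), with a median log2 ratio of 1.13. Besides Aspn and Ogn, the risers were Postn, Vcan, Thbs1, Fn1, Podn and Spon2. Postn (periostin) and Vcan (versican, a large hyaluronan-binding proteoglycan) moved late, from 20.8 through 36.6 to 126 CPM and from 29.1 through 36.6 to 113 CPM. Thbs1, thrombospondin 1, moved early, from 128 through 376 to 439 CPM. Spon1, Prelp and Matn2 fell, from 47.4 through 15.8 to 6.404, from 118 through 75.3 to 39.4 and from 28.8 through 20.6 to 10.4 CPM. Matrix proteases and their inhibitors gave 6 risers (30%) and 1 faller (5%) among 20 tested. The aggrecanase Adamts5 (3.29, 9.09 and 28.4 CPM), Adamts8 (9.71, 30.3 and 67.2 CPM) and the protease inhibitor Serpine2 (181, 414 and 782 CPM) rose, and the secreted serine protease Htra1 fell, from 1922 through 1189.7 to 598 CPM. Basement membrane genes did not share this direction: 0 of 12 rose steadily, 2 (16.7%) fell (Lamc3 and Nid2), and the median log2 ratio was -0.08.

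The secretory pathway was close to level, unlike the elastic fibre, collagen and matricellular lists. Of 28 tested genes for collagen processing and the endoplasmic reticulum, 0 were called in either direction, 1 was at least 1.5-fold higher and 0 lower, with a median log2 ratio of 0.03. Calr, a chaperone, stood at 349, 295 and 242 CPM and Hsp90b1 at 522, 588 and 640.2 CPM.

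**Figure D3:**
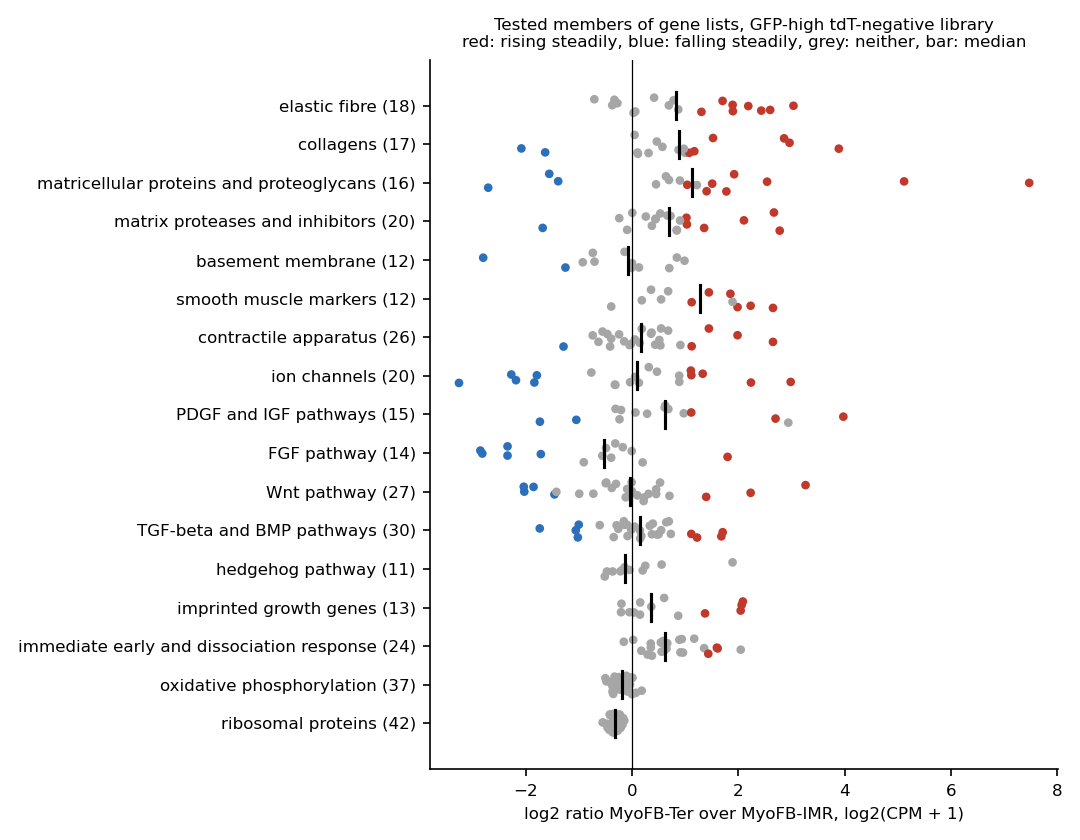
Log2 ratio of MyoFB-Ter over MyoFB-IMR (log2(CPM + 1) scale) for the tested members of 17 gene lists in the GFP-high tdT-negative library; the number tested stands after each name, red members rise steadily, blue fall, and the bar is the median. The medians run from -0.53 for the FGF pathway to 1.28 for the smooth muscle markers.

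Contractile genes split by gene rather than moving as a block. Of 26 tested genes of the contractile apparatus, 4 rose steadily (15.4%) and 1 fell (3.85%), and the median log2 ratio was 0.16. The abundant core was not called. Acta2 stood at 1008, 1596 and 1473 CPM, Tagln at 1238, 2030.2 and 1983 CPM and Myh11, the smooth muscle myosin heavy chain, at 702, 884 and 796 CPM, with ends that differed 1.46-fold, 1.601-fold and 1.14-fold. Members that were called rising were 4 genes known from smooth muscle. Cnn1, calponin, went from 4.22 through 17.4 to 31.8 CPM, 7.54-fold (95% interval 5.79 to 9.90) higher, Lmod1, an actin nucleator, from 12.8 through 30.2 to 53.5 CPM, Actg2, enteric smooth muscle actin, from 113 through 262 to 310.0 CPM, and Des, desmin, from 129 through 253 to 282 CPM. Actn1, non-muscle alpha-actinin, fell from 311 through 239 to 127 CPM, and Actb, cytoplasmic actin, stood at 2958, 2817 and 2140.3 CPM.

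Myocd, the coactivator through which serum response factor switches on smooth muscle genes, rose from 48.9 through 90.3 to 179 CPM, 3.66-fold (95% interval 3.35 to 4.01) higher, and from 17.1% through 26.3% to 40.6% of thinned cells (35.9%, 50.5% and 67.3% without thinning, and 1.22% of thinned AdvFB cells). In the list of 12 smooth muscle markers 6 rose steadily (50.0%) and 0 fell, with a median log2 ratio of 1.28; besides Myocd, Cnn1, Lmod1, Actg2 and Des, the riser was Lgr6, a receptor for R-spondins, from 58.1 through 102 to 277 CPM. Of the remaining members, Smtn, smoothelin, stood at 101, 95.5 and 76.7 CPM. Hhip, which binds and dampens hedgehog ligands, was level over the first step and then higher, at 85.3, 86.4 and 319 CPM, so it was not called steady. The kinase that activates smooth muscle myosin, Mylk, stood at 921, 725 and 550.3 CPM, and Pde5a, the phosphodiesterase of cyclic GMP, fell from 1948 through 1364 to 956 CPM.

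Fgf18 rose while 4 genes known as targets of FGF signalling fell. Fgf18 (ENSMUSG00000057967.12, chr11:33117430-33147400, minus strand) rose from 34.98 through 70.4 to 124 CPM, 3.55-fold (95% interval 3.19 to 3.95) higher, and in thinned cells from 16.6% through 26.3% to 43.9% (38.4%, 58.8% and 73.3% without thinning, and 1.22% of thinned AdvFB cells). CreERT2, which stands in 1 Fgf18 allele, rose with it, from 10.99 through 23.8 to 40.5 CPM, 3.68-fold (95% interval 3.04 to 4.46) higher. The tdTomato transcript TDT stayed below the minimum level, at 2.45, 6.05 and 9.04 CPM, in these cells sorted as tdT-negative. Of the other FGF genes, the transcription factors Etv1, Etv4 and Etv5, which FGF receptors induce through the ERK pathway, went from 564 through 333 to 171, from 28.0 through 17.2 to 4.71 and from 56.6 through 27.5 to 7.16 CPM. Spry4, a feedback inhibitor of the same pathway, fell from 43.1 through 25.4 to 5.09 CPM, 8.47-fold (95% interval 5.78 to 12.9) lower, and the receptor gene Fgfr4 from 31.8 through 12.8 to 5.46 CPM. Its relative Spry1 was level, at 277, 294 and 276 CPM. In the whole list of 14 tested FGF genes 1 rose steadily (7.14%), 5 fell (35.7%), and the median log2 ratio was -0.53.

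Of the Wnt genes 2 ligands rose and 2 nuclear effectors fell. Wnt5a, a ligand of the non-canonical branch, went from 301 through 595 to 792 CPM and Wnt9a from 5.94 through 29.3 to 65.7 CPM. Lef1 and Tcf7, transcription factors that carry the canonical signal to DNA, fell from 300.5 through 146 to 72.3 CPM (4.16-fold lower) and from 81.1 through 45.3 to 28.8 CPM. Notum, a secreted Wnt deacylase, fell from 40.8 through 14.9 to 9.23 CPM, and the R-spondin receptor Lgr5 from 31.3 through 13.7 to 7.91 CPM, opposite to its relative Lgr6. Counting Lgr6, 3 of 27 tested genes rose (11.1%) and 4 fell (14.8%), and the list's median log2 ratio was -0.04.

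Of the 12 promoters of called genes in the RefSeq table with a CArG box, the site of serum response factor, 3 belong to the falling genes Lef1, Tcf7 and Trpc6. They are shown because Lef1 and Tcf7 fell together while Myocd rose, and were chosen after the matches were seen. A role of Myocd or serum response factor in their levels was not tested. Of the 12 promoters, 8 belong to falling and 4 to rising genes. Acta2 is printed beside Lef1, Tcf7 and Trpc6 as a contractile gene that was not called, and its window has no exact match. The search took only A or T between CC and GG. The Acta2 window holds ccctatatgg and ccttgtttgg, which each miss that pattern by 1 letter, so the lack of a match does not mean that a site is absent. Capitals mark the CArG box, which begins 100 bases before the start in Lef1, 10 in Tcf7 and 122 in Trpc6. The table holds 4 promoters of Lef1 and 2 of Tcf7, and in each gene 1 has the match. The windows are Lef1 at chr3:131112541-131112840, plus strand, Tcf7 at chr11:52282546-52282845, minus strand, Trpc6 at chr9:8543892-8544191, plus strand, and Acta2 at chr19:34255324-34255623, minus strand.
Lef1: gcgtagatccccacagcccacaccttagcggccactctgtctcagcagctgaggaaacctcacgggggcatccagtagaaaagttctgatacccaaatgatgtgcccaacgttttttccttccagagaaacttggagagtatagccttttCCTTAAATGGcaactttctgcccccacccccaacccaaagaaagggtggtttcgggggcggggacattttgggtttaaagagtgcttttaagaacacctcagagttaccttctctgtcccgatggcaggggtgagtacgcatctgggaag
Tcf7: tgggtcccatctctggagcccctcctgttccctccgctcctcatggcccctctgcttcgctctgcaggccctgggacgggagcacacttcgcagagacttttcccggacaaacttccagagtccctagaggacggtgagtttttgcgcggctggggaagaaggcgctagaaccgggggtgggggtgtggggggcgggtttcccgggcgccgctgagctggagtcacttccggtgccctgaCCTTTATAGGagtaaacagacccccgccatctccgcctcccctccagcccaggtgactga
Trpc6: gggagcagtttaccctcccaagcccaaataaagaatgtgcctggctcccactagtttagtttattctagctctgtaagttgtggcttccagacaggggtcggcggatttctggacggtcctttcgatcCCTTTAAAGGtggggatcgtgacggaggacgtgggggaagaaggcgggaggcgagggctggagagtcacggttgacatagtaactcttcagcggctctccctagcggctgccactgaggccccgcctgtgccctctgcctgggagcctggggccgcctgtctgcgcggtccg
Acta2: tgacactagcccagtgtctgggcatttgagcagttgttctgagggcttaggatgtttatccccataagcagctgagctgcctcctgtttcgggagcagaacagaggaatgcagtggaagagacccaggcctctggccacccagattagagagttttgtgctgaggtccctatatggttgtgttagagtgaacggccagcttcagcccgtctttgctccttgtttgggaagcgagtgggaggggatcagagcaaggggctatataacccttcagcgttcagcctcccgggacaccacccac

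Motif shares over all called genes are a description and were not tested. A promoter was found for 155 of the 230 rising genes (218 promoters) and 172 of the 236 falling genes (235 promoters). The CArG box, on both strands, was in 1.83% of rising and 3.40% of falling promoters, against 1.44% of the 7614 promoters of tested genes and 1.64% of all 32544 promoters of the table. TATAAA stood in 12.4% of rising and 5.53% of falling promoters, against 7.07% and 13.6%. The AP-1 site TGANTCA was in 7.80% and 4.68%, against 4.70% and 7.79%, the TEAD site GGAATG in 12.8% and 12.3%, against 11.6% and 14.6%, and the TCF/LEF sites CTTTGAA and CTTTGAT in 5.96% and 5.11%, against 5.54% and 8.67%. CCAAT was in 33.0% and 35.3%, against 36.6% and 37.4%. The E2F sites TTTCGCGC, TTTGGCGC, TTTCCCGC and TTTGCCGC were in 1.83% and 3.40%, against 3.84% and 2.28%. The SMAD site GTCTAGAC and the GLI site GACCACCCA were each in 1 rising and 1 falling promoter. TATAAA can overlap a CArG box, as it does in Tcf7. A match is a string of letters in a window, not a measured binding site.

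TGF-beta and BMP genes showed no common direction: 4 of 30 rose steadily and 4 fell (13.3% each), and the median log2 ratio was 0.15. The type I receptor Tgfbr1 rose from 88.6 through 154 to 193 CPM, and Id2 and Id4, which BMP signals induce, from 68.5 through 101 to 161 and from 15.4 through 25.6 to 51.4 CPM. Smad3, which carries the TGF-beta signal, fell from 188 through 129.7 to 89.5 CPM, the co-receptor Eng from 444 through 205 to 132 CPM, Acvr2a from 205 through 133 to 102 CPM and the ligand Bmp2 from 45.8 through 34.4 to 22.0 CPM. Tgfbi, a TGF-beta induced matrix protein, stood at 1430.3, 2063 and 2669.9 CPM, short of the 2-fold limit. Hedgehog genes were mostly level, with 0 of 11 called and Hhip the 1 member at least 1.5-fold apart. Gli1 and Ptch1, whose transcription reports hedgehog input, stood at 26.0, 26.7 and 31.1 and at 356, 277 and 305 CPM. In the Notch list Maml3, a coactivator, fell from 1050.0 through 689.5 to 447 CPM and was the 1 member called of 5 tested.

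Ion channels moved in both directions. Of 20 tested ion channel genes 5 rose and 5 fell (25% each). The risers were voltage-gated calcium channel subunits, Cacna1c (596, 1138 and 1284 CPM), Cacna1g (16.6, 32.6 and 43.3 CPM) and Cacna2d3 (25.2, 82.3 and 206 CPM), with the large-conductance potassium channel Kcnma1 (37.7, 64.1 and 182 CPM) and the calcium pump Atp2b4 (73.8, 121 and 161 CPM). The fallers were Piezo2, Trpc6 (131, 95.3 and 28.1 CPM), the leak potassium channel Kcnk2 (126, 58.8 and 34.5 CPM), Cacna1d (91.9, 45.1 and 25.8 CPM) and Kcnip1 (49.4, 24.7 and 9.42 CPM). Of 8 tested vasoactive receptor and ligand genes, the prostaglandin receptor Ptger3 (6.48, 9.94 and 26.4 CPM) and the lysophosphatidic acid receptor Lpar1 (122.6, 214 and 320.0 CPM) rose.

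Axon guidance and adhesion genes moved in both directions. Ntn1 (netrin 1, 20.5, 75.7 and 129 CPM), Slit3 (7.997, 14.8 and 24.1 CPM), Sema3c (278, 375 and 599 CPM) and Efnb2 (40.0, 77.3 and 88.5 CPM) rose, and Plxna2 (489, 212 and 153 CPM), Sema3a (30.1, 11.6 and 7.53 CPM) and Efnb1 (61.8, 42.8 and 23.5 CPM) fell, of 27 tested (14.8% and 11.1%). Cdh11, a mesenchymal cadherin, fell from 783 through 417 to 159 CPM, 4.92-fold (95% interval 4.59 to 5.28) lower, opposite to Cdh4. Of 35 tested mesenchymal transcription factors 1 rose (2.86%, near the 3.09% of all tested genes), Prrx1 (2.31, 5.45 and 21.8 CPM), and 3 fell (8.57%), among them its paralog Prrx2 (33.5, 20.998 and 14.7 CPM) and Sox11 (112, 89.8 and 47.6 CPM).

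Of 16 tested genes of the cell cycle arrest list 2 rose and 2 fell (12.5% each). Ccnd1 and Ccnd2, the D-type cyclins that push cells out of G1, went from 58.4 through 36.2 to 9.42 and from 235 through 176 to 63.7 CPM. Cdkn1c, the inhibitor p57, which is imprinted, went from 131 through 259 to 341 CPM. Genes of division were low in all 3 types and their sums were in falling order, 450, 401 and 371 CPM for S phase and 355, 319 and 298 CPM for the G2 and M phases. Mki67 stood at 22.9, 28.2 and 24.5 CPM, Pcna at 24.7, 22.4 and 22.0 CPM and Cdk1 at 15.3, 10.1 and 5.27 CPM. None of 9 S phase genes and 1 of 5 genes of G2 and M phases (Nusap1, falling) were called, most members of both lists being under the minimum. The authors hold dividing cells as separate types, which are not among these cells. In the list of imprinted growth genes 4 of 13 tested genes rose steadily and 0 fell: Cdkn1c, Peg3 (70.0, 212 and 292 CPM) and the long noncoding RNAs Meg3 (59.5, 149.8 and 252 CPM) and Rian (8.68, 19.9 and 40.1 CPM), which are transcribed from the same imprinted cluster. Igf2, H19 and Dlk1 were under the minimum.

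Housekeeping lists held no called gene. None of 42 ribosomal protein genes and none of 37 genes for oxidative phosphorylation was 1.5-fold apart, with median log2 ratios of -0.32 and -0.19. In the GFP-high tdT-high library 39 of the 42 and 6 of the 37 were at least 1.5-fold lower in MyoFB-Ter, with medians of -0.76 and -0.42. Over all 7536 tested genes of that library the share at least 1.5-fold lower was 14.5% and the median -0.08. The 6 of 37 thus lie near the share of all tested genes.

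Where MyoFB-Int sat between the ends differed by gene. Its median position was 0.585 for rising genes and 0.502 for falling genes. Of the rising genes 81 had made over 66.7% of the log2 distance by MyoFB-Int and 20 under 33.3%. Falling genes were split 33 and 27. Rising genes with most of the distance covered at the first step included Igfbp5, the secreted protease-like gene Prss35 (60.2, 258 and 279 CPM), the transcription factor Creb5 (219.8, 491 and 517 CPM), Lmna (138, 259 and 281 CPM), which encodes lamins A and C, and Arhgef7 (119.7, 270.0 and 304 CPM). Those that waited for the second step were Vcan, Postn, Auts2 (270.3, 357 and 750.2 CPM), the lipid phosphatase Plpp3 (48.7, 71.2 and 189.7 CPM) and the retinoic acid receptor Rarb (44.5, 59.3 and 123.4 CPM). In AdvFB of the same library, Vcan, Postn, Auts2 and Plpp3 stood higher than in MyoFB-Ter, at 461, 1853, 1251 and 1031 CPM. Rarb stood lower there, at 15.1 CPM. Early fallers were the glypican Gpc6 (144, 49.2 and 36.2 CPM), Dchs2, Aff2, Ckap5 and Cc2d2b, and late fallers Trpc6, Ccnd2, Sox11, Jade1 and Aard.

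Of the 24 tested genes of the immediate early and dissociation list 19 (79.2%) were highest in MyoFB-Int, against 18.7% of all tested genes. Among all genes with at least 100 CPM, the 5 genes furthest above both ends were Btg2 (286, 499 and 323 CPM), Zfp36 (93.8, 197 and 122 CPM), Cebpd (188, 348 and 212 CPM), Klf2 (55.1, 139.5 and 69.5 CPM) and Nr4a1 (36.7, 109 and 53.9 CPM), genes known to respond within minutes to stimuli and also to enzymatic dissociation of tissue. Of the 24, 14 were at least 1.5-fold higher in MyoFB-Ter than in MyoFB-IMR, 0 lower, and 3 heat shock genes rose steadily (Hspa1a, Hspa1b and Hspb1). Hspa1a and Hspa1b are near-identical copies, and their counts are uncertain. Which end was higher depended on which MyoFB-Ter cells were taken. When all deposited cells were clustered, 40.6% of the MyoFB-Ter cells fell into the cluster that held most of them; with those alone, the median log2 ratio of the list was -0.29 in place of 0.62, Fos -1.37 in place of 1.17, Zfp36 -2.25 in place of 0.37, and Hspa1a 0.00 in place of 1.60. The part of tissue dissociation in these values was not tested. The opposite pattern, lowest in MyoFB-Int, held 1498 of all tested genes, against 1390 that were highest there. With at least 100 CPM, the 5 genes furthest below both ends were Plxdc2 (191, 162 and 214 CPM), Pbx3, Slit2, Nlgn1 and Enpp2 (146, 98.9 and 153 CPM). They lay less far from the ends than the 5 genes furthest above.

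With the same 40.6% of MyoFB-Ter cells, 212 of the 230 rising and 209 of the 236 falling genes kept their call. Several fallers reached further down there. Mgp had a log2 ratio of -3.64 in place of -2.43, Piezo2 -4.05 in place of -3.26 and Spry4 -3.90 in place of -2.86.

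Called genes had longer annotated spans than the tested genes as a whole. Over 100 kb of annotated span (GENCODE M21, GRCm38) was covered by 37.9% of the rising and 41.0% of the falling genes, against 19.5% of all tested genes, and the median spans were 61.1, 72.3 and 34.0 kb. The sources used here do not say whether reads in introns were counted, and the part of intronic reads in these levels was not tested.

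A score per cell, the mean log2(UMIs + 1) of the rising genes less that of the falling genes in cells thinned to 5000 UMIs, describes how far the types overlap. Its genes were chosen on these cells. Medians were -0.278, 0.0804 and 0.410. Of MyoFB-Int cells 92.1% lay between the medians of the other types, 0.484% of MyoFB-IMR cells lay above the MyoFB-Int median, and 4.95% of MyoFB-Ter cells lay below it. AdvFB cells of the library, set apart by high Dcn and low Acta2, had a median of 0.302, so a high score is not particular to MyoFB-Ter.

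**Figure D4:**
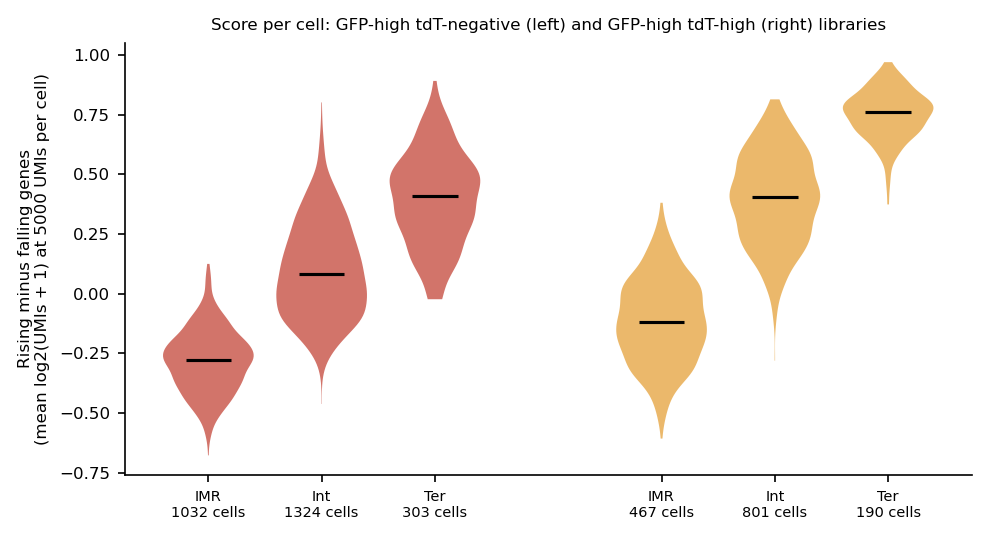
Score per cell (mean log2(UMIs + 1) of the steadily rising less the steadily falling genes, cells thinned to 5000 UMIs) as violins with their medians, by type in the tdT-negative library (left) and in the tdT-high library (right). Medians rise from -0.278 to 0.410 on the left and from -0.121 to 0.760 on the right.

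The second library, whose cells the calls had not used, held the same order for most genes. Its types were named in the same annotation, so it does not stand apart from the naming, and the difference between the libraries was not tested. Called there on its own, 393 of 7536 tested genes rose (5.21%) and 417 fell (5.53%). Of the 230 rising genes 168 were called rising in the second library too, which is 73.0% of the first list and 42.7% of the second. Of the 236 falling genes 159 were called falling, 67.4% and 38.1%. None was called in the opposite direction. The median log2 ratio of the rising genes was 1.67 in the first library and 1.76 in the second, and that of the falling genes -1.39 and -2.01.

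**Figure D5:**
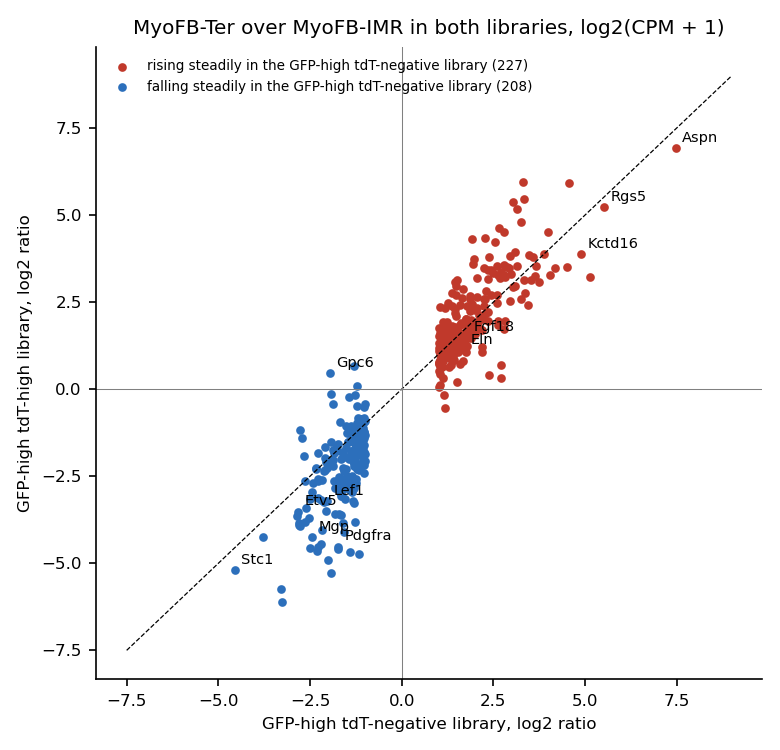
Log2 ratio of MyoFB-Ter over MyoFB-IMR (log2(CPM + 1) scale) in the GFP-high tdT-negative library (horizontal) and in the GFP-high tdT-high library (vertical) for the 227 rising and 208 falling genes tested in both; the dashed line marks equal ratios. Opposite signs are seen for 2 rising and 3 falling genes, Gpc6 among them.

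Most fallers had the larger ratio in the second library, 161 of the 208 tested in both, against 114 of 227 risers. Pdgfra stood at 587, 252 and 24.6 CPM there, H2BGFP at 255, 85.2 and 7.51 CPM and Lef1 at 223, 69.8 and 23.0 CPM. Cdh11 stood at 617, 189 and 25.6 CPM and Piezo2 at 248, 32.5 and 2.59 CPM. Aspn reached a higher end (58.8, 1673 and 7272 CPM), as did Myocd (60.0, 139 and 365 CPM), Cnn1 (4.75, 19.4 and 140.3 CPM) and Hhip (161, 284 and 1468 CPM). Other genes were highest in MyoFB-Int there. Eln stood at 6507, 15714 and 14246 CPM, Igf1 at 727, 1063 and 908 CPM, Ogn at 10.9, 164 and 109 CPM and Igfbp5 at 203, 603 and 251 CPM, so these were not called in that library. Without the MyoFB-Ter cells of 1 cluster, described next, the MyoFB-Ter level was above MyoFB-Int for 3 of the 4: Eln 20883, Igf1 1083 and Ogn 234 CPM, with Igfbp5 at 517 CPM. The same step lowered the MyoFB-Ter levels of Cnn1 to 55.9, Hhip to 714 and Myocd to 236 CPM, and raised those of Pdgfra to 60.1, H2BGFP to 18.6 and Cdh11 to 41.4 CPM. Piezo2 then stood at 4.14 CPM. Its level before that step rested on 10 UMIs, and no counting interval was made for these changes. Fgf18 kept its order there (49.5, 101 and 139.6 CPM), with TDT at 47.0, 64.1 and 79.0 CPM in the cells sorted as tdT-high.

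The MyoFB-Ter cells of the libraries were not made up alike. Of the 190 in the second library 139 lay in a cluster that held 5 of the 303 in the first. Without that cluster's cells, 51 MyoFB-Ter cells remained in the second library, and 156 of the 230 rising and 117 of the 236 falling genes were called there; the share of falling genes was then 49.6% in place of 67.4%. Leaving out the 5 cells from the first library left 223 of the 230 rising and 224 of the 236 falling genes called.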

How the data were processed

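Single-cell 3' libraries were made with 10x Genomics chemistry, per the labels' protocols. The submitters' processing notes name Cell Ranger 7.0.0 and the build mm10; cell filters, intron counting and strand are not given in the sources used here. The authors deposited UMI counts per gene and cell and, in a cell table, the cell type, total counts and the percent of mitochondrial UMIs. Summed matrix counts equalled the deposited totals in all 6142 cells.

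UMIs were summed per type (Python 3.11.15, numpy 2.4.6, pandas 2.3.3), scaled to CPM, and compared on the log2(CPM + 1) scale, which understates the ratio of low genes; folds and intervals use CPM itself (scipy 1.17.1). No doublet caller was run; an alternative leaves out the 5% of cells with most UMIs. Clusters are Leiden clusters at resolution 1.0 (scanpy 1.11.5). The calling script was tested on simulated data. TMM factors (edgeR 4.0.16) and size factors (DESeq2 1.42.0) served only as alternative scalings (R 4.3.3). Gene positions are from GENCODE M21, matched by symbol for 30176 of 31730 genes.

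The cells and gene lists were chosen with earlier results of these data known. Named genes are the 15 steepest called in each direction with at least 50 CPM, the 5 earliest and latest, the 5 highest and lowest in MyoFB-Int with at least 100 CPM, a short list of lineage, reporter and signalling genes, those beside the 2-fold limit, and up to 6 members of a list; further called members of a list are named after their values were seen. Unnamed, sex-linked, mitochondrial and ribosomal protein genes were left out of the ranking.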

Additional observations from a re-analysis of the deposited data

Results flagged for a closer look

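Some genes pointed one way between MyoFB-IMR and MyoFB-Ter in the tdT-negative library and the other way in the tdT-high library. There were 6 among the named genes, each with both libraries beyond the counting interval, and the difference between the libraries was not tested. Gpc6, a glypican of the cell surface, had a log2 ratio of -1.96 in the first library and 0.47 in the second. The immediate early genes Cebpd and Klf2 had 0.17 and 0.33 in the first and -0.57 and -0.46 in the second. The homeobox gene Pbx3 had -0.27 against 0.33, the cell adhesion gene Opcml 0.69 against -0.16, and the noncoding RNA Airn -0.20 against 0.23. The MyoFB-Ter cells of the libraries fell mostly into different clusters. Without the cluster that held 139 of the 190 MyoFB-Ter cells of the second library, the ratio there had the sign of the first library in 5 of the 6: Gpc6 -0.72, Cebpd 0.05, Klf2 0.81, Pbx3 -0.08 and Opcml 0.30. Airn stayed opposite, at 0.39. These ratios rest on 51 MyoFB-Ter cells and have no counting interval, and those of Cebpd and Pbx3 lie near 0. In the first library, Cebpd and Klf2 had -0.94 and -1.80 with the MyoFB-Ter cells of their main cluster alone. The part of the clusters in these differences was not tested.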

How the results depend on the processing

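No paired analysis was possible because each gate is 1 library and no test was made. The counts of steadily rising and falling genes, 230 and 236, moved by over 1.5 times only where the limits themselves moved: 151 and 145 at a minimum of 50 CPM, 364 and 427 with no minimum beyond 10 UMIs, 443 and 441 at 1.5-fold, and 122 and 91 at 3-fold. Under the other 15 settings they lay between 192 and 310 and between 182 and 293; the lowest came from thinned cells, where 171 and 161 of the genes were shared. TMM scaling gave 263 and 204, DESeq2 size factors 271 and 199, with the median of all tested genes at 0.06 and 0.07. Leaving out the MyoFB-Ter cells of the tdT-high cluster, or cells with a UMI of Dcn, Lum, Serpinf1 or Clec3b, was chosen after seeing the data. Over named genes and settings 3327 log2 ratios held, 594 moved and 15 reversed. The settings with a minimum of 50 CPM and with no minimum beyond 10 UMIs change only which genes are tested. They leave every ratio as it was, so their part of these counts was fixed in advance. A ratio could count as reversed only where its main counting interval leaves out 1. Ratios whose interval includes 1, such as those of Ier2, Abcc9, Enpp2, H19 and Mki67, also changed sign and are counted among those that held or moved. Of the 15, 11 came with the MyoFB-Ter cells of the main cluster alone: Btg2 -1.28, Zfp36 -2.25, Cebpd -0.94, Klf2 -1.80, Nr4a1 -1.47, Fos -1.37, Atf3 -0.66, Hes1 -0.54, Klf4 -0.23, Lpl -0.19 and Gas1 -0.0639, and the immediate early list's median was -0.29. With only Y-positive, Xist-negative cells Btg2 was -0.0920 and Klf2 -0.46, without cells with a Mki67 or Top2a UMI Klf2 was -0.0751, and in thinned cells Hes1 was -0.0787; the cause was not tested. Cells with Xist and no Y-linked UMI numbered 10, 18 and 1, under a minimum of 50 set after seeing this, so that split was not run. At 303 cells MyoFB-Ter has the least depth, 3 UMIs being 0.565 CPM there.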
